A study of Mus musculus with 12 samples.

Results

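The comparison described here asks how the change in RNA between the germinal vesicle (GV) stage and metaphase II (MII) differed between wild-type (WT) and Alkbh5-/- (KO) mouse oocytes. It is the contrast (KO MII minus KO GV) minus (WT MII minus WT GV), and it uses 8 of the 12 libraries of the series, 2 in each of 4 groups, leaving aside the libraries taken at germinal vesicle breakdown (GVBD). Genes were grouped by their symbols into 39 families that held 1829 listed genes, of which 1663 passed the filter on low counts, among 20807 genes tested in all. Ribosomal protein and oxidative phosphorylation genes were left out of the description.

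All mice were C57BL/6 females of about 3 weeks, primed with pregnant mare serum gonadotropin (PMSG). WT oocytes carried intact Alkbh5, and KO oocytes came from mice in which CRISPR-Cas9 had removed exon 1 of Alkbh5 from the whole body, so the granulosa cells around the oocyte lacked the gene as well. GV oocytes were taken before culture and MII oocytes after maturation in M16 medium, in both genotypes, and each library was a pool of oocytes. Oocytes were collected by time in culture, and the methods describe no step that kept only KO oocytes that had reached MII. The study reports that most KO oocytes in culture stayed at the GV stage, and that far fewer KO than WT oocytes extruded a first polar body. KO libraries called MII may therefore hold largely oocytes at earlier stages. A difference in stage and a difference in RNA at the same stage cannot be told apart in these pools.

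ALKBH5 is an enzyme that removes N6-methyladenosine (m6A) from RNA. A fully grown mouse oocyte has stopped transcribing, and from GV to MII its stored messengers are translated, given longer or shorter poly(A) tails, or degraded without being replaced. Many messengers recruited for translation at this time carry a cytoplasmic polyadenylation element, a U-rich stretch near the end of the 3′ untranslated region that is bound by the CPEB proteins.

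Each library held between 28557742 and 40247810 counts, of which 221927 to 838409 fell on the ERCC spike-in RNAs. Counts on genes per spike-in count were 104.9 and 98.9 in WT GV, 73.3 and 47.0 in WT MII, 127.7 and 111.3 in KO GV, and 87.9 and 54.7 in KO MII, so the replicates of an MII group differed by more than the genotype means. Alkbh5 itself was counted 5355 and 6031 times in WT GV, 7005 and 6266 times in WT MII, 143 and 74 times in KO GV, and 94 and 71 times in KO MII. The 10 oocyte markers summed to 14600 to 24900 CPM, the count scaled to a library of 1e6 counts. Granulosa and cumulus markers summed to 43.0 to 87.9 CPM, with 2 of 14 at 0 throughout, and none of those tested was called. Red blood cell markers summed to 1.23 to 36.4 CPM in 4 libraries and to 916 to 5520 CPM in WT GV replicate 2, both KO GV libraries and KO MII replicate 1, and leukocyte, striated muscle and epithelial markers stayed at or under 210 CPM. No tested marker of these 5 lists was called, although their median differences were 0.64 for granulosa, 3.36 for red blood cell, -1.2 for leukocyte, -8.65 for striated muscle and -5.06 for epithelial markers. The part of these other cells in the results was not tested. KO MII replicate 2 had the fewest genes detected, 19837.

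Differences were read on 2 scales. Under spike-in scaling a level is set against the added ERCC RNA, so it stands for the amount of RNA per pool, and fewer oocytes in a tube and less RNA per oocyte cannot be told apart. Under relative scaling (TMM) a level is set against the other genes of the same library. Both library protocols named by the sources begin from poly(A), so that a longer tail and more molecules cannot be told apart on either scale. Over all genes, the median GV to MII change was -1.10 in WT and -1.23 in KO on the log2 scale with spike-ins, and -0.08 and -0.20 under relative scaling. The median genotype difference was therefore close to 0 on both scales, -0.07 with spike-ins and -0.03 under relative scaling.

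A gene was called when its Benjamini-Hochberg adjusted p in edgeR's quasi-likelihood test was under 0.05 and its log2 difference was at least 1 in size. Under spike-in scaling no gene was called by edgeR (0.0% of those tested), although 1197 (5.75%) had an unadjusted p under 0.05, and DESeq2 called 146. The smallest adjusted p with edgeR on that scale was 0.0956. Under relative scaling 71 genes were called (0.341%), 63 with a higher KO change (0.303%) and 8 with a lower one (0.0384%). All 71 had the same direction and an unadjusted p under 0.05 with spike-ins, and all 71 were called again without KO MII replicate 1 and without KO MII replicate 2. No gene at all was called without WT GV replicate 1, WT MII replicate 1 or WT MII replicate 2, and 1 gene was called without either KO GV library. The number called thus moved with the library left out. The 71 were picked from these same libraries for large differences, so the directions they kept are not independent support.

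Differences, SEs and adjusted p-values given below are those under relative scaling unless spike-ins are named. The called genes had a common shape. Among the 63 with a higher KO change, the median log2 change from GV to MII was -3.24 in WT and -0.20 in KO, and all 63 had a lower level at MII than at GV in WT. At GV the median KO minus WT level was -0.21, with a higher level in KO for 19 of 63, against 11326 of all 20807 genes. At MII it was 2.58, with a higher level in KO for 63 of 63. The 63 were picked for a large positive difference, which by itself tends to lower the gap at GV and raise the gap at MII. Of the 71, 7 were ribosomal protein and 5 oxidative phosphorylation genes. The remaining 59 comprised 37 protein-coding genes, 13 long noncoding RNAs and 9 pseudogenes, and 8 of them lay in a described family.

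**Figure D1:**
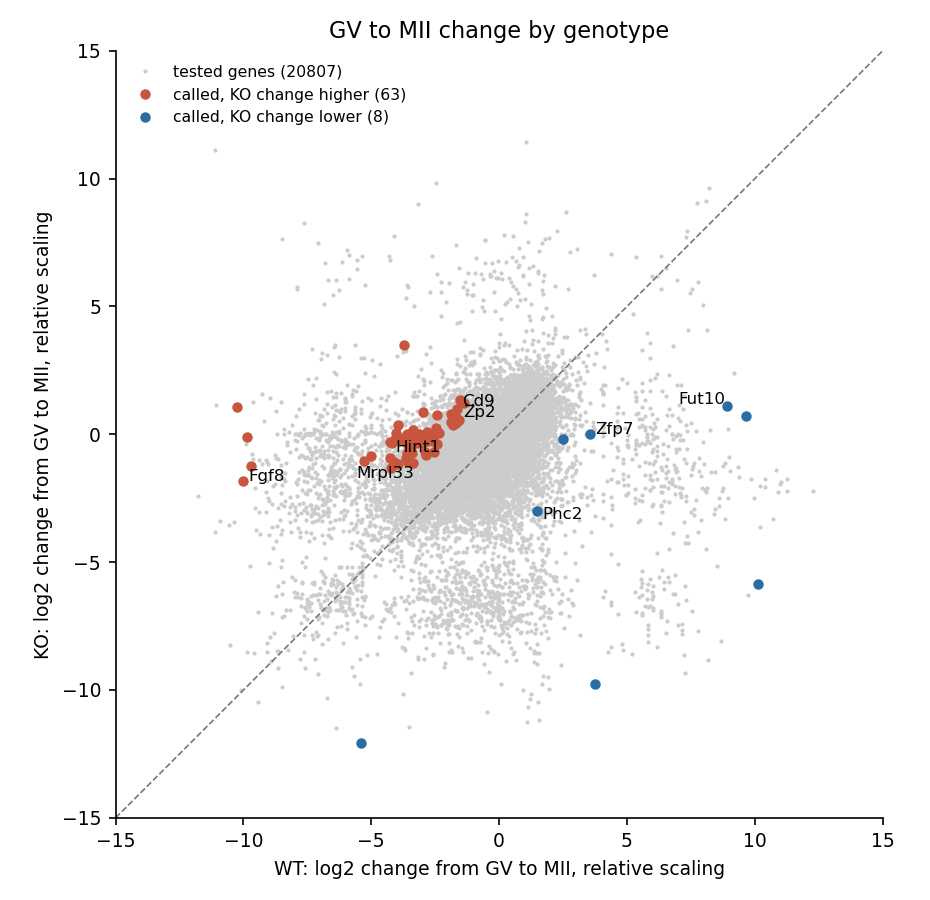
Each point is a gene, with its log2 change from GV to MII in WT on the x axis and in KO on the y axis, both under relative scaling, and the dashed line marks equal change. The 63 called genes with a higher KO change lie to the left, with a median of -3.24 in WT and -0.20 in KO, and the 8 with a lower KO change lie below the line, 7 of them with a WT change above 0.

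Few families moved as a whole. In 34 of the 39, the median difference was within 0.3 of 0 under relative scaling, and 6 changed sign between the scales. The 5 beyond 0.3 were egg coat and oocyte-secreted factors at 0.82 and chaperonin and prefoldin subunits at 0.45, and, on the other side, translation elongation factors at -0.46, DEAD and DEAH box helicases at -0.43 and SLC25 carriers at -0.34. These medians moved with the KO MII library kept. Without KO MII replicate 1 and without KO MII replicate 2, respectively, they were 1.22 and 0.52 for the egg coat family, 0.60 and 0.09 for chaperonin and prefoldin subunits, -0.39 and -0.09 for elongation factors, -0.72 and -0.31 for the helicases, and -0.39 and -0.45 for SLC25 carriers. Of the 1663 tested members 8 were called, or 0.481%, near the 0.341% of all genes. The genotypes did not overlap, with every KO difference between an MII and a GV library above every WT one, in 201 members (12.1%, against 13.1% of all genes), and the reverse order held in 289 (17.4%, against 14.2%). All members were protein-coding, whereas the shares of all genes, here and below, also take in noncoding genes. Across 10 bins of coding length, 5.11% to 23.6% of coding genes had a KO change above WT without overlap. The share below WT ran from 9.24% to 20.3%. For comparison only, the medians of ribosomal protein and oxidative phosphorylation genes were 0.88 and 0.75.

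**Figure D2:**
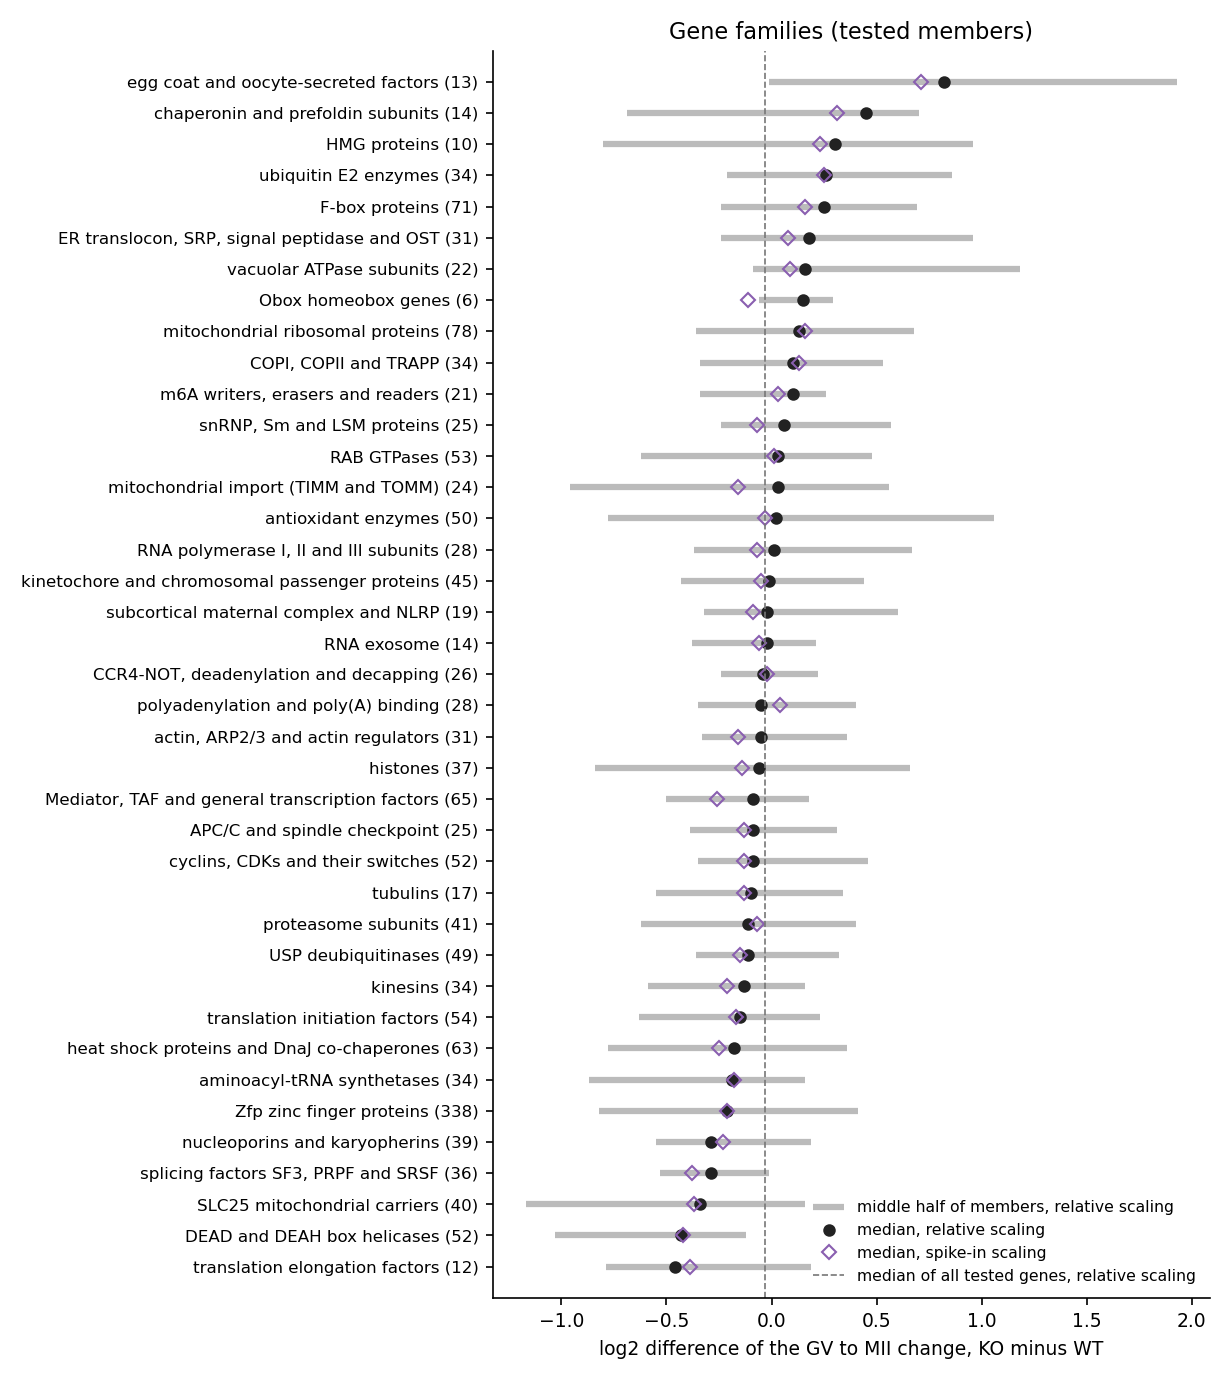
Median log2 difference between genotypes (KO change minus WT change) for each of 39 families, with the number of tested members in brackets. Filled points are medians under relative scaling, open diamonds medians with spike-ins, grey bars the span from the lower to the upper quartile of the members, and the dashed line the median of all genes. Egg coat and oocyte-secreted factors stand highest, at 0.82 and 0.71, and the bars of most families cross 0.

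Egg coat and oocyte-secreted factors were the family with the largest median difference, 0.82 under relative scaling and 0.71 with spike-ins, and the one family whose library medians did not overlap between genotypes on either scale. With 1 library left out at a time the median ran from 0.52 to 1.22. Against the WT GV mean, the median member was lower in both WT MII libraries (-0.71 and -0.54) and higher in both KO MII libraries (0.61 and 0.97). Of its 13 genes 3 were called (Zp2, Cd9 and Fgf8), against 0.341% of all genes. An unadjusted p under 0.05 was found in 6 in the higher direction, against 6.28% of all genes, and in none in the lower direction, against 4.61%. The family was listed with earlier results of these data known, so these shares are not independent support. Differences were not even over the family: they were 1.55 or more in the zona pellucida genes, Cd9 and Fgf8, and within 0.34 of 0 in Gdf9, Bmp15, Oosp1 and Oosp3.

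The zona pellucida is the glycoprotein coat that sperm bind and cross, and Zp1, Zp2 and Zp3 encode its 3 mouse proteins. Zp2 was at 1590 and 1570 CPM in WT GV, 585 and 466 in WT MII, 1060 and 1190 in KO GV, and 1630 and 1700 in KO MII. The WT MII libraries held 33.3% of the WT GV level, while the KO MII libraries held 148% of the KO GV level, a log2 difference of 2.15 ± 0.30 (SE, n = 2 per group, adjusted p = 0.0347, edgeR) under relative scaling and of 2.08 ± 0.67 with spike-ins. The KO GV libraries lay below the WT GV libraries, and the KO MII libraries above all others.

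Zp3 was lowest in WT MII as well, at 917 and 722 CPM in WT GV, 296 and 267 in WT MII, 565 and 751 in KO GV, and 902 and 825 in KO MII. Its log2 difference of 1.93 ± 0.33 was close to that of Zp2 but missed the threshold (n = 2 per group, adjusted p = 0.0667, edgeR). Zp1 differed mainly through KO MII, with 272 and 202 CPM in WT GV, 201 and 159 in WT MII, 164 and 226 in KO GV, and 409 and 458 in KO MII, and a difference of 1.55 ± 0.36 that was not called (n = 2 per group, adjusted p = 0.161, edgeR). For all 3 genes the KO changes lay above the WT changes without overlap on both scales, as in 13.1% of all genes under relative scaling and 7.53% with spike-ins.

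Cd9 encodes the egg tetraspanin required for fusion with sperm. It was at 324 and 282 CPM in WT GV, 92.3 and 102 in WT MII, 362 and 371 in KO GV, and 617 and 835 in KO MII. The genotypes were near each other at GV and far apart at MII, where WT held 32.0% and KO 198% of the GV level, and the log2 difference was 2.63 ± 0.32 (n = 2 per group, adjusted p = 0.0292, edgeR). Izumo1r, the egg receptor for sperm IZUMO1, leaned the same way but not past the threshold, at 176 and 80.9 CPM in WT GV, 41.8 and 41.0 in WT MII, 63.3 and 72.6 in KO GV, and 54.6 and 46.8 in KO MII. Its difference was 1.21 ± 0.48 (n = 2 per group, adjusted p = 0.414, edgeR), and the 2 WT GV libraries disagreed with each other more than the MII groups did.

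Fgf8, a growth factor that oocytes send to the cumulus cells, was counted 142 and 119 times in WT GV, 0 and 0 times in WT MII, 142 and 226 times in KO GV, and 49 and 35 times in KO MII. With 3 counts allowed in each WT MII library, its WT level at GV was at least 43.3-fold higher than at MII, against 3.57-fold in KO. The gap between genotypes was therefore at least 3.6 on the log2 scale, and the gene was called under relative scaling (n = 2 per group, adjusted p = 0.0347, edgeR).

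Gdf9 and Bmp15 encode the paired growth factors by which the oocyte directs its granulosa cells. Gdf9 was at 2160 and 1400 CPM in WT GV, 4060 and 4050 in WT MII, 1490 and 2000 in KO GV, and 3140 and 3630 in KO MII, a difference of -0.23 ± 0.39. Bmp15 had a difference of 0.34 ± 0.32, Oosp1 one of -0.01 ± 0.53 and Oosp3 one of -0.06 ± 0.50, and for each of these 4 genes the MII libraries of both genotypes held between 194% and 413% of their GV level. The genotypes overlapped in all 4, and the sign of Gdf9, Oosp1 and Oosp3 depended on the setting. Oosp2, a neighbour of both other Oosp genes on chromosome 19, was at 0.82 ± 0.36, and Astl, the protease that cleaves ZP2 after fertilization, at 0.47 ± 0.34. Zp3r, better known as a sperm protein, was low in every library, between 1.16 and 3.7 CPM, with a difference of -0.19 ± 0.92.

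**Figure D3:**
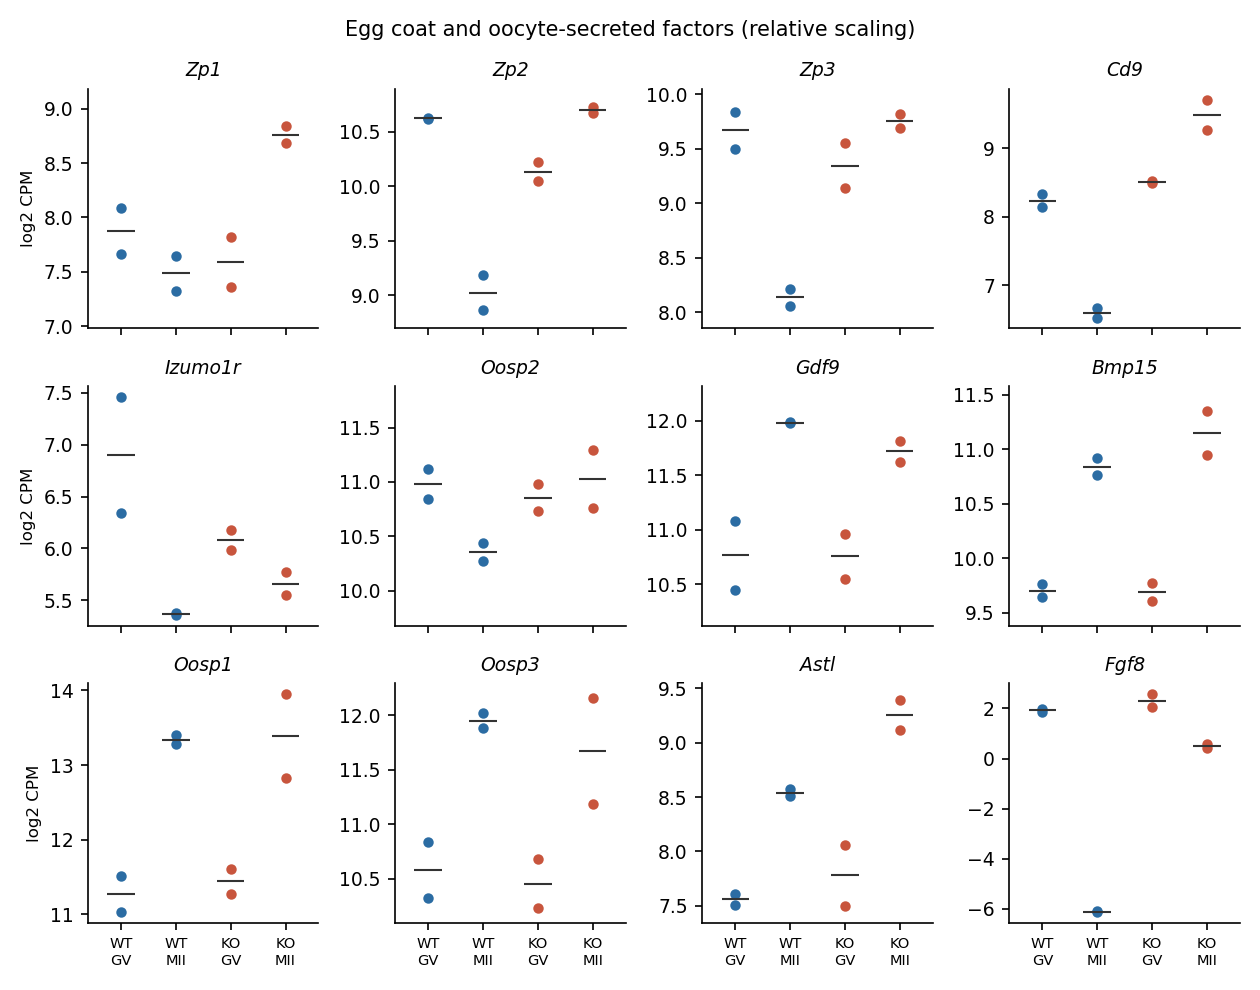
Level of 12 of the 13 egg coat and oocyte-secreted genes (all but Zp3r) in each of the 8 libraries, as log2 CPM under relative scaling with 0.5 added to each count, on axes that differ between panels. Points are libraries, WT in blue and KO in red, and bars are the mean of 2. In Zp2, Zp3 and Cd9 the WT MII points lie lowest, and in Zp2 and Cd9 the KO MII points lie above all others, whereas Gdf9, Bmp15, Oosp1 and Oosp3 are higher at MII than at GV in both genotypes.

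Stretches from the ends of these messengers are shown because the genes differ in whether a cytoplasmic polyadenylation element lies near the annotated end. Capitals mark the polyadenylation signal AATAAA and, in the last 3, the element searched for (TTTTAT or TTTTAAT, on the transcript strand only, within the last 150 bases). Windows of 30 bases around the signal or the element are given 5′ to 3′ on the GRCm38 build with GENCODE M21 transcripts.
Zp1 (chr19:10914293-10914322, minus strand): atggactcAATAAAccattgtttgaaaact
Zp2 (chr7:120132356-120132385, minus strand): gacttgcaAATAAAgagactgcagttaaac
Zp3 (chr5:135988595-135988624, plus strand): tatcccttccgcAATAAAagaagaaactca
Cd9 (chr6:125460266-125460295, minus strand): tttgatacatAATAAAagattataacagtg
Gdf9 (chr11:53437862-53437891, plus strand): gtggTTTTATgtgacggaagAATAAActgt
Oosp1 (chr19:11667554-11667583, minus strand): ctgcTTTTAATtgtataaaatctgattaaa
Oosp3 (chr19:11711829-11711858, plus strand): cacaacctataAATAAAacaTTTTATtgta

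The 3′ untranslated regions of the zona genes are very short, at 34 bases in Zp1, 49 in Zp2 and 13 in Zp3, so that in Zp3 the signal begins before the untranslated region does. Those last 150 bases therefore reach into coding sequence in the zona genes and Oosp2. No element lay in them in Zp1, Zp2, Zp3, Cd9, Izumo1r or Oosp2, and one lay there in Gdf9, Oosp1 and Oosp3. The match was not complete: Bmp15 and Astl held no element and were not called, and Spcs1, described next, held one and was called. A match in these windows is a description of letters and not evidence of binding.

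Across all genes the median difference was alike with and without the element, while fewer genes with it had a KO change above WT. Among 13329 coding genes with a 3′ untranslated region of at least 150 bases, ribosomal protein and oxidative phosphorylation genes left out, 24.7% held it. Genes with the element had a median change of 0.53 in WT and 0.30 in KO under relative scaling, and genes without it had -0.04 and -0.27. The median genotype difference was -0.10 with the element and -0.11 without it. A KO change above WT without overlap was found in 7.79% of genes with the element and in 11.0% of those without it. Over 4 bins of coding length, from shortest to longest, these shares were 11.2% and 17.7%, 8.17% and 10.2%, 6.76% and 9.68%, and 5.61% and 5.96%. The gap was thus small in the longest bin. A KO change below WT without overlap was found in 16.6% of genes with the element and in 16.1% without it. Of 26 called genes with a higher KO change and such a region, 2 held the element.

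The families of protein entry into the endoplasmic reticulum and of membrane traffic had medians under 0.2 and 1 called gene. ER translocon, SRP, signal peptidase and oligosaccharyltransferase (OST) genes had a median of 0.18 over 31 members, with 10 members (32.3%) above WT without overlap and 3 (9.68%) below, against 13.1% and 14.2% of all genes. In a split made after values were seen, the 18 signal peptidase, OST and TRAP genes had a median of 0.62 with 8 above without overlap, and the 13 translocon and SRP genes one of 0.03. Spcs1, a subunit of the signal peptidase that trims signal sequences from secreted proteins, was at 298 and 272 CPM in WT GV, 52.7 and 57.7 in WT MII, 238 and 274 in KO GV, and 239 and 285 in KO MII. All libraries except those of WT MII lay together, and the difference was 2.40 ± 0.29 (n = 2 per group, adjusted p = 0.0292, edgeR). The other signal peptidase subunits named Spcs did not share it, with 0.54 ± 0.53 for Spcs2 and -0.35 ± 0.63 for Spcs3.

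Sec61g, the small subunit of the translocon channel, had a difference of 1.36 ± 0.40 and Sec62, a further translocon protein, one of 0.03 ± 0.35, neither called. Vacuolar ATPase genes, which encode the pump that acidifies organelles, had a median of 0.16, with 8 of 22 members (36.4%, against 13.1% of all genes) above WT without overlap and 2 (9.09%, against 14.2%) below. That median changed sign with the KO MII library kept, at 0.68 without replicate 1 and -0.09 without replicate 2. Atp6v0e of its membrane sector stood at 1.11 ± 0.38 and Atp6v1e1 of its outer sector at -1.28 ± 0.52, so the family held both directions. COPI, COPII and TRAPP coat and tethering genes had a median of 0.10, although the tethering subunit Trappc2l stood at 1.71 ± 0.39 (n = 2 per group, adjusted p = 0.152, edgeR), and RAB GTPases one of 0.03.

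Families of protein turnover each held at most 1 called gene. Proteasome subunits had a median of -0.11 over 41 members, with 8 (19.5%, against 13.1% of all genes) above WT without overlap and 9 (22.0%, against 14.2%) below. Psmb4, a subunit of the catalytic core, was the called member, at 98.6 and 66.8 CPM in WT GV, 7.05 and 8.59 in WT MII, 82.5 and 113 in KO GV, and 67.1 and 50.1 in KO MII. Its WT MII level was 9.46% of that at GV, against 60.0% in KO, and the difference was 2.67 ± 0.41 (n = 2 per group, adjusted p = 0.0481, edgeR). The catalytic core subunits Psmb7 and Psmb5, named after their values were seen, stood at 2.73 ± 0.48 and 1.69 ± 0.31 and missed the threshold (n = 2 per group, adjusted p = 0.0717 and 0.0831, edgeR). Psmb7 was at 673 and 472 CPM in WT GV, 26.7 and 26.4 in WT MII, 578 and 649 in KO GV, and 252 and 126 in KO MII. The core subunits Psma1 and Psma2, the family's most counted members, stood at -0.42 ± 0.37 and 0.21 ± 0.49.

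Chaperonin and prefoldin subunits, which help newly made actin and tubulin to fold, had a median of 0.45 over 14 members, and without 1 library at a time it ran from 0.09 to 0.60. Members lay on both sides, 6 (42.9%, against 13.1% of all genes) above WT without overlap and 5 (35.7%, against 14.2%) below. In a split made after values were seen, the 6 prefoldin genes had a median of 0.59 and the 8 chaperonin CCT genes one of -0.03, with 4 of those 8 below. Pfdn5 stood at 1.2 ± 0.37 (n = 2 per group, adjusted p = 0.289, edgeR), with 1560 and 1190 CPM in WT GV, 994 and 1120 in WT MII, 1110 and 1300 in KO GV, and 1770 and 2500 in KO MII. F-box proteins, the substrate receptors of SCF ubiquitin ligases, had a median of 0.25 with 15 of 71 members (21.1%) above WT without overlap and 3 (4.23%) below. Ubiquitin E2 enzymes had one of 0.26 with 10 of 34 (29.4%) above and 4 (11.8%) below, where all genes gave 13.1% and 14.2%. No member of these 3 families was called. Heat shock proteins and their DnaJ partners had a median of -0.18, with Hsp90aa1, a heavily counted cytosolic chaperone, at -0.14 ± 0.33, and USP deubiquitinases one of -0.11.

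Among translation and mitochondrial families, mitochondrial ribosomal proteins and antioxidant enzymes each carried 1 called gene within a flat median. Mitochondrial ribosomal proteins had a median of 0.13 over 78 members, with 15 (19.2%, against 13.1% of all genes) above WT without overlap and 10 (12.8%, against 14.2%) below. Mrpl33, one of the shortest proteins of the large subunit, was at 443 and 323 CPM in WT GV, 7.96 and 11.8 in WT MII, 321 and 399 in KO GV, and 226 and 128 in KO MII. The WT MII libraries held 2.57% of the GV level and the KO MII libraries 49.1%, a difference of 4.25 ± 0.49 (n = 2 per group, adjusted p = 0.0292, edgeR). Mrps33 and Mrpl35, the 2 most counted members, stood at 1.14 ± 0.33 and -0.10 ± 0.34 and were not called.

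Sod1, the cytosolic superoxide dismutase, was the called member of the antioxidant enzymes. It was at 239 and 240 CPM in WT GV, 33.7 and 33.0 in WT MII, 252 and 276 in KO GV, and 170 and 129 in KO MII, and its difference was 2.02 ± 0.30 (n = 2 per group, adjusted p = 0.0396, edgeR). The family's median was 0.02 over 50 members, and the peroxiredoxin Prdx1 stood at 0.04 ± 0.42. TIMM and TOMM import genes had a median of 0.03, and Timm17a of the inner membrane translocase was nearly as low at MII in KO as in WT, at 8.82% and 6.2% of GV.

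Several families leaned toward a lower KO change, without a called member. DEAD and DEAH box helicases, which remodel RNA structures, had a median of -0.43 over 52 members (-0.42 with spike-ins). Of these, 19 (36.5%) had a KO change below WT without overlap, against 14.2% of all genes, and 1 (1.92%, against 13.1%) lay above. The family's library medians did not overlap under relative scaling, as in 10 of the 39 families, but did overlap with spike-ins. Ddx18, a helicase of ribosome production, was at 469 and 289 CPM in WT GV, 1180 and 1260 in WT MII, 279 and 293 in KO GV, and 455 and 360 in KO MII, a difference of -1.18 ± 0.38 (n = 2 per group, adjusted p = 0.318, edgeR). Ddx3x, a helicase of translation initiation, stood at 0.18 ± 0.27 and did not share the lean.

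Splicing factors of the SF3, PRPF and SRSF groups had a median of -0.29, with 11 of 36 (30.6%, against 14.2% of all genes) below WT without overlap and 2 (5.56%, against 13.1%) above. Nucleoporins and karyopherins had the same median of -0.29, with 9 of 39 (23.1%) below and 3 (7.69%) above, yet Kpna2, an importin alpha, stood at 1.0 ± 0.33. The median of nucleoporins and karyopherins ran from -0.28 to -0.04 with 1 library left out at a time. Among all settings tried it reached 0.12, so its sign was not kept. SLC25 carriers of the inner mitochondrial membrane were at -0.34 but reached 0.04 among the settings tried. Translation elongation factors were at -0.46 over 12 members, with overlap between genotypes in the 4 MII libraries. Their median was -0.09 without KO MII replicate 2. Among aminoacyl-tRNA synthetases the median was -0.19, or -0.75 without KO MII replicate 1, with Nars at -1.01 ± 0.38 and Iars at -0.58 ± 0.35, neither called.

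The Zfp zinc finger genes, many of them repressors of transposable elements, were the largest family, with a median of -0.21 on both scales over 338 members. A KO change below WT without overlap was found in 68 (20.1%, against 14.2% of all genes) and one above in 21 (6.21%, against 13.1%). Zfp7 was called with a lower KO change, at 2.89 and 1.61 CPM in WT GV, 27.1 and 25.9 in WT MII, 14.5 and 17.6 in KO GV, and 16.5 and 15.6 in KO MII, a difference of -3.56 ± 0.45 (n = 2 per group, adjusted p = 0.0292, edgeR). The KO libraries were alike at both stages and lay between the WT GV and WT MII libraries. Zfp655 and Zfp957, the most counted members, stood at -0.50 ± 0.28 and 0.06 ± 0.30.

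Families that deadenylate, decap, degrade or methylate messengers had medians within 0.1 of 0. CCR4-NOT, deadenylation and decapping genes had a median of -0.04 over 26 members. Btg4, the adaptor that brings CCR4-NOT to maternal messengers, was at 2350 and 2310 CPM in WT GV, 6820 and 7580 in WT MII, 2380 and 2610 in KO GV, and 4360 and 10500 in KO MII, and its sign depended on which KO MII library was kept. The deadenylase Cnot7 stood at 0.42 ± 0.44, or at 0.97 without KO MII replicate 1 and -0.12 without replicate 2. Genes of m6A writers, erasers and readers had a median of 0.10 over 21 members, with Wtap of the writer complex at -0.43 ± 0.48 (0.19 without KO MII replicate 1 and -1.12 without replicate 2), and with the readers Igf2bp2 at -0.16 ± 0.28 and Igf2bp3 at 0.10 ± 0.36. RNA exosome genes had a median of -0.02, and polyadenylation and poly(A) binding genes one of -0.05.

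Meiotic families lay near 0 as groups. The median was -0.09 for anaphase-promoting complex and spindle checkpoint genes, -0.01 for kinetochore and chromosomal passenger genes, -0.09 for cyclins, cyclin-dependent kinases and their switches, -0.10 for tubulins and -0.13 for kinesins, and none of their members was called. In tubulins and kinesins the library medians of the KO change lay below those of WT without overlap under relative scaling, but overlapped with spike-ins. Ccnb1, the cyclin B1 gene, stood at 0.03 ± 0.42, and the checkpoint genes Mad2l1 and Bub1b at -0.42 ± 0.51 and -0.16 ± 0.31. Mad2l1 moved to 0.18 without KO MII replicate 1 and to -1.09 without replicate 2.

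Of the 45 kinetochore and chromosomal passenger genes, 12 (26.7%, against 14.2% of all genes) lay below WT without overlap and 6 (13.3%, against 13.1%) above. The genes described next were taken from the study's text, and each stood higher without passing the threshold. Birc5, which encodes the passenger protein survivin, was at 806 and 606 CPM in WT GV, 399 and 504 in WT MII, 526 and 597 in KO GV, and 761 and 1140 in KO MII, a difference of 1.41 ± 0.39 (n = 2 per group, adjusted p = 0.235, edgeR). Zwint, which links the kinetochore to the RZZ checkpoint complex, was at 165 and 187 CPM in WT GV, 36.7 and 34 in WT MII, 161 and 215 in KO GV, and 113 and 89.0 in KO MII, a difference of 1.42 ± 0.33 (n = 2 per group, adjusted p = 0.156, edgeR). Ska3 of the microtubule-binding SKA complex, the phosphatase Cdc25b and the kinase Cdk7 stood at 1.12 ± 0.46, 1.04 ± 0.45 and 0.62 ± 0.32. The study had chosen these 5 genes, with Uchl1 and Esrrb, from these samples, so their direction is not independent evidence.

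The deubiquitinase gene Uchl1 stood at 1.59 ± 0.36 and Esrrb, an orphan nuclear receptor, at 1.99 ± 0.43 (n = 2 per group, adjusted p = 0.150 and 0.145, edgeR). For Hmgn3, a nucleosome-binding protein, the libraries held 2.47 and 3.24 CPM in WT GV, 4.32 and 3.96 in WT MII, 11.8 and 8.91 in KO GV, and 16.1 and 77.7 in KO MII. Its level was higher in KO at both stages, and the difference of 1.64 ± 0.87 rested on KO MII replicate 2, without which it was 0.10, against 2.53 without replicate 1. Actb stood at -0.06 ± 0.35, with a sign that depended on the setting. In the actin family, with a median of -0.05, the monomer-binding gene Tmsb10 just missed the threshold at 2.56 ± 0.41 (n = 2 per group, adjusted p = 0.0544, edgeR).

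Among oocyte-restricted genes outside the egg coat, subcortical maternal complex and NLRP genes had a median of -0.02 over 19 members, with Ooep at 0.82 ± 0.39 and Nlrp14 at 0.53 ± 0.32. Obox homeobox genes had a median of 0.15 over 6 members, which ran from -0.79 to 0.84 with 1 library left out. Histones and HMG proteins had medians of -0.06 and 0.30 (that of HMG proteins was 0.47 without KO MII replicate 1 and -0.08 without replicate 2), Mediator and general transcription factors one of -0.09 and RNA polymerase subunits one of 0.01.

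Outside the families, the highest differences among called genes at or above the median level belonged to genes of varied function. Hint1, a nucleotide hydrolase, was at 694 and 614 CPM in WT GV, 28.3 and 39.8 in WT MII, 738 and 952 in KO GV, and 838 and 535 in KO MII. WT MII held 5.20% of the GV level and KO MII 81.3%, a difference of 3.97 ± 0.43 (n = 2 per group, adjusted p = 0.0292, edgeR). Chchd2, a protein of the mitochondrial intermembrane space, was at 126 and 98.9 CPM in WT GV, 5.79 and 7.90 in WT MII, 97.7 and 123 in KO GV, and 123 and 107 in KO MII, a difference of 4.10 ± 0.36 (n = 2 per group, adjusted p = 0.0262, edgeR). In both genes the 6 libraries other than WT MII lay together.

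Pet100, an assembly factor of cytochrome c oxidase, had a difference of 3.82 ± 0.47, Zbtb8os, archease, a cofactor of the tRNA ligase complex, one of 3.62 ± 0.44, and Commd4, of the COMM domain family, one of 3.56 ± 0.52. Iqcf5 and Dcpp3 followed at 3.50 ± 0.52 and 3.18 ± 0.45, both with a lower level in KO than in WT at GV. The processed pseudogenes Rpl23a-ps3 and Rpl39-ps stood at 3.83 ± 0.54 and 3.39 ± 0.47, and reads of their parent ribosomal protein genes may be counted there, so their values are uncertain.

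**Figure D4:**
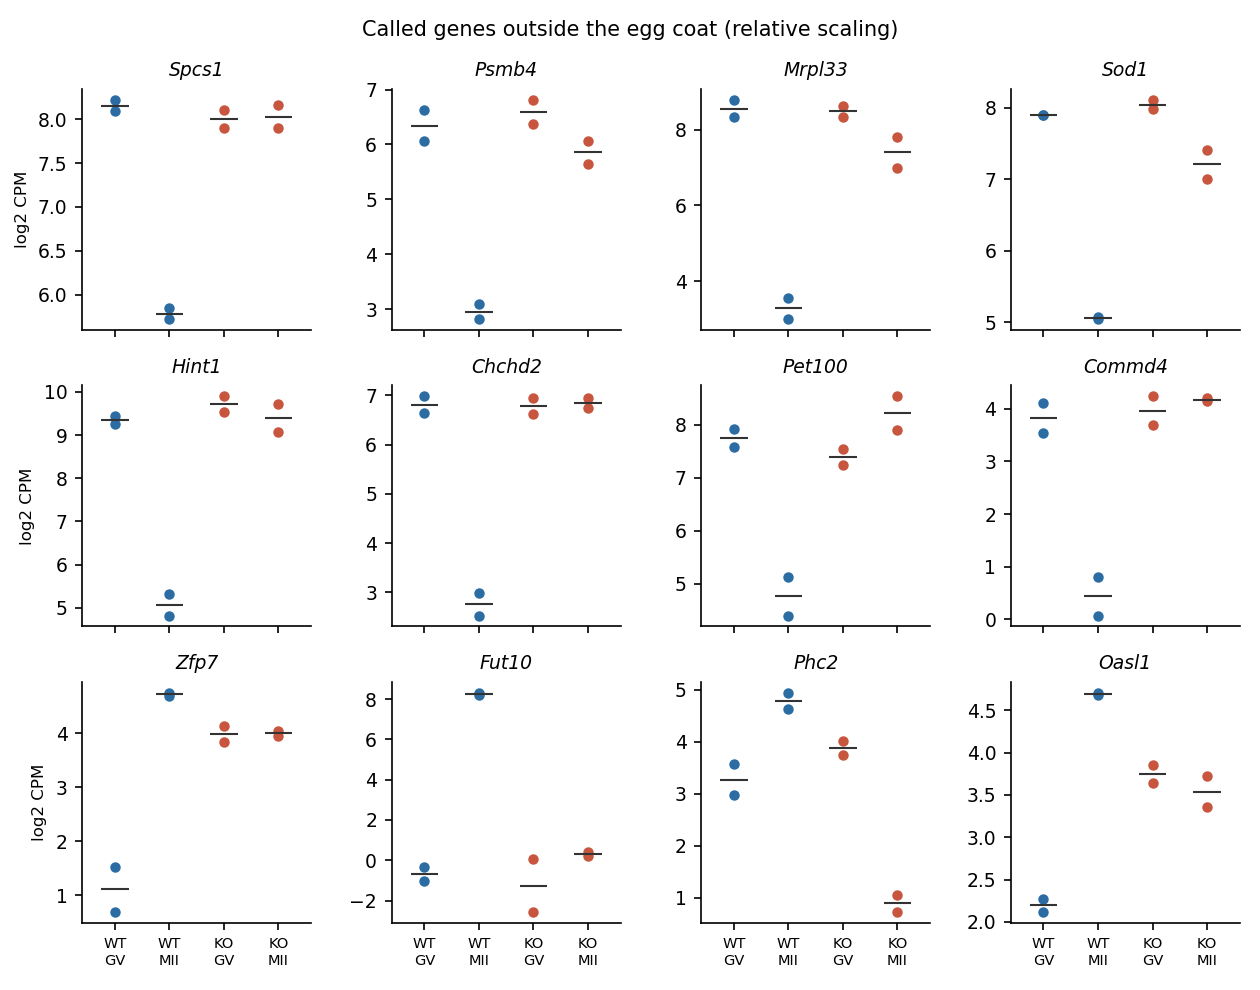
Level of 12 called genes in each of the 8 libraries, as log2 CPM under relative scaling with 0.5 added to each count, on axes that differ between panels. Points are libraries, WT in blue and KO in red, and bars are the mean of 2. In the first 8 panels the WT MII points lie below all other libraries, and in Zfp7, Fut10, Phc2 and Oasl1 the WT MII points lie above them.

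Of the 8 genes with a lower KO change, 4 are described here and the others carry only Gm numbers as names. Fut10, of the fucosyltransferase family, was counted 17 and 26 times in WT GV, 11012 and 10132 times in WT MII, 35 and 6 times in KO GV, and 48 and 27 times in KO MII, a difference of -7.84 ± 0.90 (n = 2 per group, adjusted p = 0.0292, edgeR). High counts were thus present in WT MII and in neither KO stage. Oasl1, of the interferon-induced 2′-5′-oligoadenylate synthetase-like genes, was at 4.82 and 4.35 CPM in WT GV, 25.6 and 26.3 in WT MII, 12.5 and 14.4 in KO GV, and 13.1 and 10.2 in KO MII, a difference of -2.70 ± 0.37.

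Phc2, a Polycomb group gene, was the 1 of these 4 with its lowest level in KO MII. It stood at 7.84 and 12 CPM in WT GV, 31.0 and 24.8 in WT MII, 16.2 and 13.4 in KO GV, and 1.66 and 2.08 in KO MII. WT MII held 281% of the GV level and KO MII 12.7%, and the difference was -4.49 ± 0.46 (n = 2 per group, adjusted p = 0.0271, edgeR).

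Coding length ran with the difference across genes. Among 14890 coding genes with ribosomal protein and oxidative phosphorylation genes left out, set in 10 bins of coding length, the bin of the shortest genes (111 to 525 bases) had a median difference of 0.27 under relative scaling and 0.22 with spike-ins. The bin of the longest genes had -0.24 and -0.23. In the shortest bin 23.6% of genes had a KO change above WT without overlap, against 5.11% in the longest. Spearman's correlation between coding length and the difference was -0.12 across genes, which share the 8 libraries and are not independent replicates.

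Against the WT GV mean, the shortest genes had WT MII medians of -0.69 and -0.54, and KO MII medians of -0.38 and -0.45. For the longest genes the WT MII medians were 0.54 and 0.52, and the KO MII medians 0.35 and 0.00. In the longest bin the KO MII libraries lay below the WT MII libraries, but differed from each other by more than the nearer of them differed from WT. Without KO MII replicate 2 the shortest and longest bins stood at 0.12 and -0.17, and without KO MII replicate 1 at 0.36 and -0.30. Library quality and the pools' stage were not tested as a source of the relation.

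**Figure D5:**
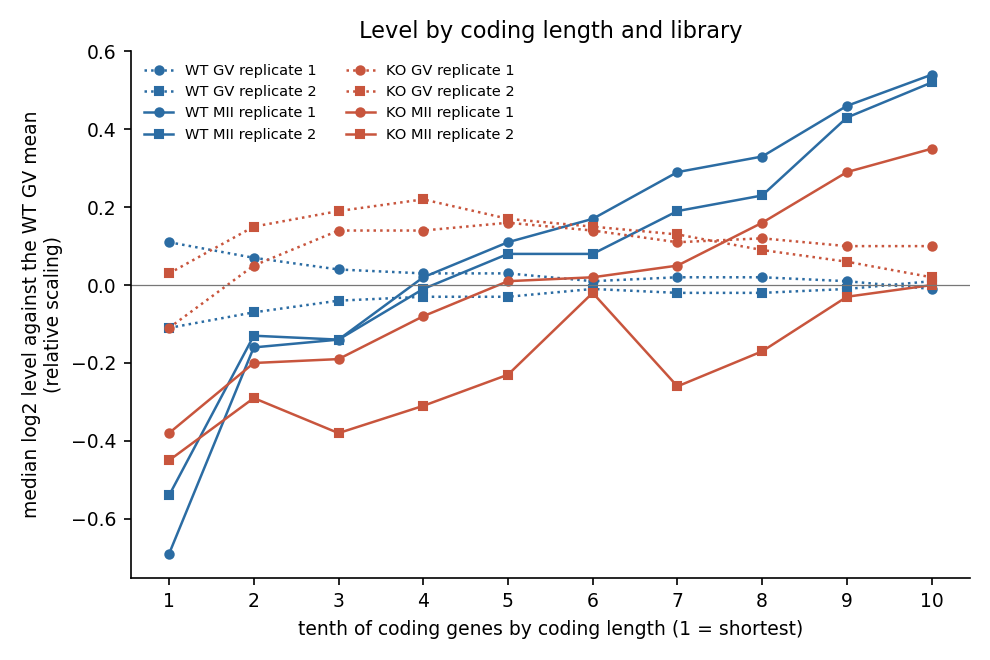
Median log2 level of coding genes against the WT GV mean, by bin of coding length (10 bins) on the x axis, in each of the 8 libraries under relative scaling, ribosomal protein and oxidative phosphorylation genes left out. WT is blue and KO red, GV dotted and MII solid, circles replicate 1 and squares replicate 2. The WT MII lines run from -0.69 and -0.54 in the shortest bin to 0.54 and 0.52 in the longest, and the KO MII lines run less steeply, from -0.38 and -0.45 to 0.35 and 0.00.

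Noncoding genes leaned the same way as short coding genes. The median difference was 0.31 over 1426 long intergenic RNAs, 0.27 over 756 antisense RNAs and 0.24 over 1666 processed pseudogenes. It was -0.09 over 15092 protein-coding genes. With spike-ins these medians were 0.26, 0.24, 0.19 and -0.13. In the same order, 11, 1, 6 and 49 genes were called under relative scaling, against 71 of all 20807 genes (0.341%). Whether the counting used strand is not given in the sources used here, so that reads of an antisense RNA and of its partner cannot be told apart, and processed pseudogenes may share reads with their parent genes.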

How the data were processed

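The authors deposited 1 table of raw read counts per gene and per ERCC sequence. Per the labels and methods, SMART-seq reads of pooled oocytes were trimmed (cutadapt 1.9), aligned to GRCm38 plus ERCC sequences (HISAT2 2.0.4) and kept where uniquely mapped, with StringTie 1.3.4d named for assembly. The step that gave whole counts, and its use of strand, are not given in the sources used here, and the labels' protocol describes a bulk extraction instead. Genes with near-identical copies lose reads when mapping must be unique. The 2 libraries per group are biological replicates per the study, but each is a pool of oocytes. The p-values set a difference against the variation between pools, not between single mice.

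Counts were fitted with edgeR's quasi-likelihood test (edgeR 4.0.16, R 4.3.3) in 1 model of the 4 groups after filterByExpr (20807 genes), with library sizes from summed ERCC counts or from TMM factors. SEs are the log2 difference divided by the root of the F statistic. CPM values add 0.5 to each count. A change was said not to overlap when all 4 KO differences between MII and GV libraries lay on 1 side of all 4 WT ones. The analysis was also run on simulated counts with a fixed dispersion and equal expected spike-in totals, which do not reproduce how these pools vary. Alternatives were DESeq2 1.42.0, other scalings and filters, a block for replicate number, and fits that omit 1 library. Genes named are those called, at most 4 per family, the 2 most counted members of each family, the 10 highest and 5 lowest called genes at or above the median level outside the left-out families, and a list from the study's text and earlier results, and not all of them are described. Spcs2, Spcs3, Psmb5, Psmb7 and the rest of the egg coat family (Zp1, Zp3, Zp3r, Bmp15, Izumo1r, Oosp2, Oosp3 and Astl) were added after their values were seen. Members and lists were chosen with earlier results of these data known. Gene models are GENCODE M21.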

Additional observations from a re-analysis of the deposited data

Results flagged for a closer look

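The GV to MII change differed between genotypes, by edgeR's test of the difference itself under relative scaling, in 20 of the genes named above, each also without overlap between the KO and WT changes. In the log2 difference, KO minus WT, the family members stood at 2.15 for Zp2, 2.63 for Cd9, 2.40 for Spcs1, 2.67 for Psmb4, 4.25 for Mrpl33, 2.02 for Sod1 and -3.56 for Zfp7, and Fgf8 had a fitted value of 8.17 that depends on the prior count because WT MII was at 0. Outside the families it was 3.97 for Hint1, 4.10 for Chchd2, 3.82 for Pet100, 3.62 for Zbtb8os, 3.56 for Commd4, 3.50 for Iqcf5, 3.18 for Dcpp3, 3.83 for Rpl23a-ps3 and 3.39 for Rpl39-ps. It was -7.84 for Fut10, -4.49 for Phc2 and -2.70 for Oasl1. None of the 20 passed the threshold with spike-ins.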

How the results depend on the processing

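The number of genes called moved with most settings. With spike-ins, where edgeR called 0, the count was 71 with TMM scaling (63 higher, 8 lower), 119 with median-of-ratios scaling, 346 with no filter on low counts (135 higher, 211 lower), 63 with at least 10 counts in every library, 146 with DESeq2, 2 with all 12 libraries in 1 model, and from 0 to 285 with 1 library left out. The highest of these, 285, came without KO MII replicate 2; it was 52 without KO MII replicate 1, 37 without WT GV replicate 2, 20 without WT GV replicate 1, 6 without KO GV replicate 1 and 1 without KO GV replicate 2. Under relative scaling, where 71 were called and 88.7% of them were higher, it was 119 with median-of-ratios scaling, 191 with TMM factors set without ribosomal protein and oxidative phosphorylation genes, 841 with no filter (63.5% higher), 339 with at least 10 counts in every library, 722 with DESeq2 (74.0% higher), 277 with 12 libraries, and from 0 to 829 with 1 library left out. The cause of these shifts was not tested. Each of the 71 kept its direction in every relative setting in which it was tested (62 were with at least 10 counts). The 71 were picked from these same libraries, so this is not independent support. Gene by gene, same-numbered libraries correlated between -0.23 and 0.05 in their deviations from the group means. Yet counts on genes per spike-in count were lower in replicate 2 than in replicate 1 in every group. Whether replicate numbers pair the libraries is therefore not settled, above all on the spike-in scale. With a replicate block no gene was called by edgeR on either scale, with 1852 at an unadjusted p under 0.05 under relative scaling and 1102 with spike-ins. Family medians kept their sign in every setting in 13 of 39 families, and 102 of 468 recomputed medians moved by more than 1 SD of the library medians. Of 75 named genes, none of the 20 called changed sign and 21 of the 55 not called did so in at least 1 of 13 settings, which was not counted as a reversal. A group left with 1 library was assumed to vary like the others, and 2 libraries per group limit the precision throughout.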

Other observations

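The libraries taken at GVBD belong in no comparison above. Fut10 was counted 6496 and 5152 times in WT GVBD and 16 and 14 times in KO GVBD, so its high WT counts were present before MII.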
